A study of Mus musculus with 6 samples.

Results

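The 6 mouse Iroquois homeobox genes lie in 2 clusters, with Irx3, Irx5 and Irx6 on chromosome 8 and Irx1, Irx2 and Irx4 on chromosome 13. Their domains of trimethylated lysine 27 of histone H3 (H3K27me3) are described here in spermatogenic cells. The members are the calls that overlap 1 interval per gene, each 40 kb long (35 kb at Irx6) and chosen by position alone in the mm9 build. The intervals are chr8:94305001-94345000 for Irx3, chr8:94865001-94905000 for Irx5, chr8:95185001-95220000 for Irx6, chr13:72080001-72120000 for Irx1, chr13:72750001-72790000 for Irx2 and chr13:73380001-73420000 for Irx4. Peaks of all libraries merge into 54748 regions over the genome, of which 18 overlap these 6 intervals. The 4 stretches between neighbouring genes of a cluster, 2020 kb in all against 235 kb of gene intervals, hold 135 such regions and serve as the comparison.

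The libraries come from chromatin immunoprecipitation and sequencing (ChIP-seq) of testes of 6-week-old mice of mixed background. Controls carry MvhCre;Ezh2fl/+ and mutants MvhCre;Ezh2fl/fl, with 2 H3K27me3 libraries per genotype. Both genotypes carry the Cre, named for Mvh, a germ-cell gene, and the controls keep 1 Ezh2 allele that the Cre cannot delete. Somatic cells were removed on Percoll and with strainers, and spermatogenic cells made up 90% of the preparation, per the labels' protocols, so each library mixes germ cells of several stages with some other cells. The calls measure neither cell markers nor the loss of Ezh2, so the labelled cell type and genotype could not be checked with them. The labels do not say that replicates came from separate animals, and p-values then cover only the spread between these libraries.

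H3K27me3 marks genes held silent by the Polycomb system, and the methyltransferases EZH1 and EZH2, in alternative forms of Polycomb repressive complex 2, write it. Iroquois genes encode homeodomain transcription factors of the three-amino-acid-loop-extension class, named after the Drosophila Iroquois complex, and pattern the nervous system, heart, limb, lung and kidney of the embryo. Their clusters keep long stretches without other protein-coding genes, which carry regulatory elements, and Iroquois genes are well-known Polycomb targets in many cell types. In the GRCm38.p6 gene table, used here only for names and order, 0 protein-coding genes lie between neighbouring Iroquois genes of either cluster. Fto, an RNA demethylase gene, precedes Irx3, and Mmp2, a matrix metalloproteinase gene, follows Irx6. Adamts16, encoding a secreted metalloproteinase, precedes Irx1, and Ndufs6, encoding a subunit of mitochondrial complex I, follows Irx4. By the same order, 7 long noncoding RNA genes lie between Irx3 and Irx5, among them Irx3os and Crnde. They were not placed in mm9, so each may fall in a gene interval or in the stretch.

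Promoters of CpG islands are the usual places of Polycomb domains, so the promoter windows of the members are shown with each CG in capitals. The RefSeq table of promoters (GRCm38.p6, 250 bases before to 50 after the start of the gene) matched 3 of the 6 members. The windows, printed 5′ to 3′ on the gene's strand, are chr13:72628570-72628869 (plus strand) for Irx2, chr8:91801605-91801904 (minus strand) for Irx3 and chr13:73260247-73260546 (plus strand) for Irx4.
Irx2: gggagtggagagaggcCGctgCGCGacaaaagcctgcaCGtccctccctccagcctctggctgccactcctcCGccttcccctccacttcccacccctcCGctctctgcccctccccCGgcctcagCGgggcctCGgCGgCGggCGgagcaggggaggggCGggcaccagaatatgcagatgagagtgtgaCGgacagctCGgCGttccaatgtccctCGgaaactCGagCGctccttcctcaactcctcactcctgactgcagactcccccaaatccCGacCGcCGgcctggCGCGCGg
Irx3: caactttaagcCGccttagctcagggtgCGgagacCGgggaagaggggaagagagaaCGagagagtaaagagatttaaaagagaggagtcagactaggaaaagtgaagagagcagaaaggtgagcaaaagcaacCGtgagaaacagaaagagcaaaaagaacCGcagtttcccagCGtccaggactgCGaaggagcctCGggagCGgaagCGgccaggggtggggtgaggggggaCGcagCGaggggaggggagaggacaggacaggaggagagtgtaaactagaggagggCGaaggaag
Irx4: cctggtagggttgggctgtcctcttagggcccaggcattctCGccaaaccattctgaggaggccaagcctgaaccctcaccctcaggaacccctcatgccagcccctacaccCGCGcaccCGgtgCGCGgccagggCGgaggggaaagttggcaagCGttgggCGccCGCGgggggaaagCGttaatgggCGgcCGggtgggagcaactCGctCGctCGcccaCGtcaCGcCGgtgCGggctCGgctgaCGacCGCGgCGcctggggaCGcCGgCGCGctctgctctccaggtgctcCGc
The letters CG read the same on both strands. The Irx4 window holds 31 of them and 70.7% G or C, the Irx2 window 25 and 69.0%, and the Irx3 window 14 and 56.0%. Over all 32851 promoter windows of the table the median is 7 CG and 52.7% G or C, and 94.6% of windows hold at least 1. The observed count over that expected from base composition was 0.828 at Irx4, 0.748 at Irx3 and 0.723 at Irx2, against a median of 0.384. These windows are in another build than the calls, so they were not placed inside the domains.

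The authors deposited calls, not signal. MACS2 peaks give start and end only. HiddenDomains, a caller for broad marks, gives enriched bins of 200 bp with a display score, and lengths below are from its bins unless MACS2 is named. Over the genome MACS2 covered 67.3 and 69.8 Mb in controls 1 and 2 and 82.0 and 64.4 Mb in mutants 1 and 2. HiddenDomains covered 53.4 and 54.3 Mb in the controls and 50.9 and 44.6 Mb in the mutants. Mutant 1 holds 42363 MACS2 peaks against 31863 to 32271 in the other libraries. Read depth is unknown, so a covered length is not corrected for depth, and a domain that is wide in few cells cannot be told apart from one that is weak in all cells.

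Each Iroquois gene carried a broad H3K27me3 domain in every library, and both mutants kept all 6. The widest merged MACS2 region was 22.1 kb at Irx1 (chr13:72086043-72108106), 20.9 kb at Irx4 (chr13:73391760-73412706) and 20.8 kb at Irx2 (chr13:72758852-72779642). On chromosome 8 it was 15.5 kb at Irx6 (chr8:95190458-95205963), 14.3 kb at Irx5 (chr8:94880227-94894566) and 14.3 kb at Irx3 (chr8:94319677-94334013). By width these regions rank from 94 at Irx1 to 254 at Irx3 among the 54748, and all 6 were called in both controls and both mutants by both callers. A merged width can rest on 1 library. At Irx6 the widest peak was 15.5 kb in mutant 1, against 8.24 and 8.30 kb in the controls and 9.30 kb in mutant 2. Of the 18 MACS2 regions at the genes, each library contributed to 8 (44.4%), against 36.4% of all regions (percent called in all 4). By hiddenDomains 7 of 23 regions were called in every library (30.4%), against 43.5% of its 36836 regions. The broad class as a whole was retained: of the 1163 MACS2 regions of the series at least 8 kb wide, 1159 (99.7%) were called in all 4 libraries, and 604 of 604 by hiddenDomains. Presence in all 4 libraries is therefore shared by the Iroquois domains with nearly every region of this width, a cut-off chosen with the data known.

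**Figure D1:**
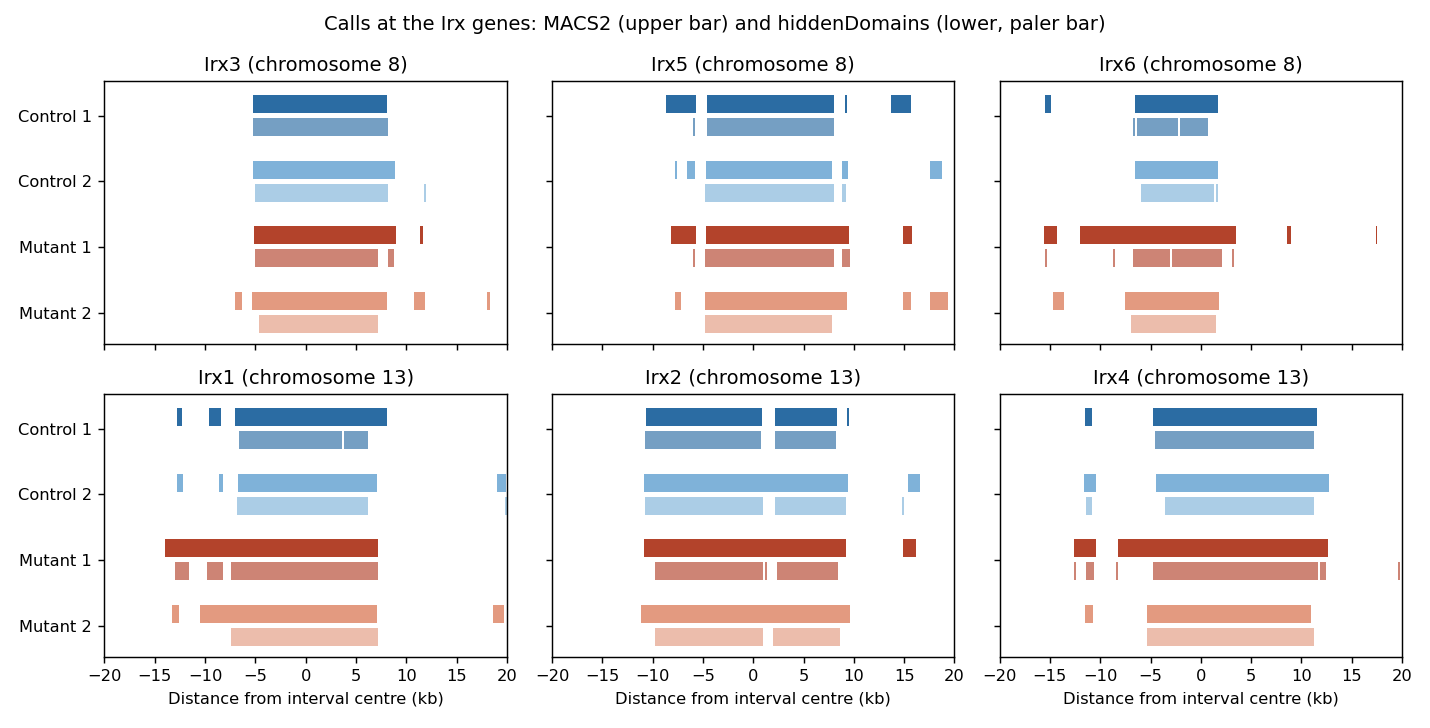
Calls of both callers around each gene. Each panel is 1 gene, the x axis is the distance from the centre of its interval in kb, and each row is 1 library with MACS2 peaks and hiddenDomains bins drawn as separate bars. A broad block stands near the centre of each panel in all 4 libraries, with the MACS2 block at Irx1 and Irx6 extending farther to the left in mutant 1.

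On chromosome 8, Irx3, known for patterning the neural tube and for the fast conduction system of the heart, had 13.4 kb covered in each control, 12.8 kb in mutant 1 and 11.8 kb in mutant 2. Both mutants lie below both controls, by 1.1 kb on average (control mean 13.4 kb ± 0 SD, mutant mean 12.3 kb ± 0.71 SD, n = 2 each). The right edge of the widest domain was at 94333200 in both controls and at 94332200 in both mutants. Mutant 1 had a further piece 8.2 to 8.8 kb right of the interval's centre, while the domain of both controls ended at 8.2 kb. With 2 libraries against 2, the two-sided exact permutation test cannot give a p below 0.333, the value found for the covered length. MACS2 gave the other order for the summed length, with 13.4 and 14.1 kb in the controls versus 14.4 and 15.4 kb in the mutants. The widest MACS2 peak overlapped between genotypes, with 13.4 and 14.1 kb in the controls versus 14.2 and 13.4 kb in the mutants, and so did its right edge. The MACS2 sum includes chr8:94335746-94336844, a region of 1.10 kb to the right of the domain. That region was called in both mutants (0.25 and 1.10 kb) and in neither control. This pattern held for 1 of the 18 MACS2 regions at the genes (5.56%), against 5.97% of all regions. HiddenDomains covered 0 kb of it in both mutants and 0.044 kb in control 2. The MACS2 sum also includes regions of 0.64 and 0.28 kb called in mutant 2 alone.

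Irx5, which acts with Irx3 in the heart and craniofacial skeleton and shapes cardiac repolarisation, differed least between genotypes by hiddenDomains. It had 12.8 and 13.2 kb in the controls versus 13.8 and 12.6 kb in the mutants, so the genotypes overlap (exact permutation p = 1). The widest domain of the 4 libraries measured 12.6 to 12.8 kb, and its edges moved by no more than 1 bin of 200 bp. MACS2 covered 17.9 and 15.2 kb in the controls versus 17.6 and 17.1 kb in the mutants, again overlapping. The widest MACS2 peak alone did not overlap, with 12.7 and 12.5 kb in the controls versus 14.3 and 14.1 kb in the mutants (exact permutation p = 0.333), and its right edge lay at 94893067 and 94892861 in the controls and at 94894566 and 94894279 in the mutants. Each control had a separate short MACS2 peak just past that edge, ending 9.315 and 9.391 kb right of the interval's centre. The widest peak of the mutants ended at 9.566 and 9.279 kb, so these right ends overlap between genotypes. A second MACS2 region at Irx5, chr8:94876317-94879286, was also called in all 4 libraries, with 2.97 and 1.02 kb in the controls versus 2.44 and 0.60 kb in the mutants.

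Irx6, studied mainly in bipolar cells of the retina, had the smallest domain by hiddenDomains. It measured 7.0 and 7.4 kb in the controls versus 9.2 and 8.4 kb in the mutants, a mean difference of 1.6 kb with no overlap between genotypes (exact permutation p = 0.333). MACS2 gave the same order, with 8.83 and 8.30 kb in the controls, 17.4 kb in mutant 1 and 10.3 kb in mutant 2. Mutant 1 stands apart in that caller: its peak began at 95190458, against 95194997 to 95195969 in the other 3 libraries. HiddenDomains broke the domain differently in each library, with a widest piece of 4.0 and 7.2 kb in the controls versus 5.0 and 8.4 kb in the mutants, so the widest piece does not order the libraries by genotype.

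On chromosome 13, Irx1, active in limb, lung and inner ear development, had the largest difference in length of the 6 by hiddenDomains (by MACS2 it was second, 4.003 kb against 5.284 kb at Irx6). It measured 12.6 and 13.2 kb in the controls, 17.6 kb in mutant 1 and 14.6 kb in mutant 2. Both mutants lie above both controls (mean difference 3.2 kb, exact permutation p = 0.333), and the difference is 1.7 kb without mutant 1. MACS2 ordered the libraries the same way, with 16.8 and 15.8 kb in the controls versus 21.1 and 19.5 kb in the mutants. In MACS2 the added length lies on the left: the widest peak began 12.96 and 13.24 kb from the left end of the interval in the controls and 6.04 and 9.46 kb from it in mutants 1 and 2, while its right edge varied by less than 1 kb. Both controls also had short separate MACS2 peaks in this left flank, so that edge is not the limit of their calls. Relative to the interval's centre, the leftmost MACS2 call began at -12.769 and -12.782 kb in the controls versus -13.958 and -13.29 kb in the mutants. HiddenDomains added length on both sides of the domain. In mutant 1 it also called separate pieces of 1.4 and 1.6 kb left of the domain, called in no other library. The left edge of the domain was at 72093401 and 72093201 in the controls and at 72092601 in both mutants. The domain ended 6.2 kb right of the interval's centre in both controls and 7.2 kb right of it in both mutants. In control 1 a gap of 1 bin splits it, so the widest piece there ends at 72103600.

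Irx2, expressed in neural and lung tissue of the embryo, had the longest covered length in both controls, 17.6 and 19 kb, against 17.0 and 17.4 kb in the mutants. The mutants are lower by 1.1 kb on average (exact permutation p = 0.333). The left edge of the first domain was at 72759201 in both controls and at 72760201 in both mutants. MACS2 did not repeat the order of the lengths, with 18.0 and 21.5 kb in the controls versus 21.4 and 20.8 kb in the mutants. Its widest peak began 9.30 and 9.13 kb into the interval in the controls versus 9.155 and 8.851 kb in the mutants. These left edges overlap between genotypes. The Irx2 domain is cut by a short gap, noticed after its values were seen, at chr13:72770801-72772200 in control 1. It measured 1.4 and 1.2 kb in the controls versus 1.4 and 1.0 kb in the mutants, with a single 0.2-kb bin inside it in mutant 1. The first domain measured 11.6 and 11.8 kb in the controls and 10.8 kb in both mutants, and the second 6.0 and 7.0 kb in the controls versus 6.0 and 6.6 kb in the mutants. MACS2 peaks covered 0.12 kb of the gap in control 1 and all of it in the other 3 libraries, so the gap belongs to 1 caller in those 3.

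Irx4, a regulator of ventricular identity in heart muscle, measured 15.8 and 15.4 kb in the controls versus 18.4 and 16.6 kb in the mutants. Both mutants lie above both controls (mean difference 1.9 kb, exact permutation p = 0.333), and the difference is 1.0 kb without mutant 1. MACS2 gave 16.9 and 18.3 kb in the controls, 23.0 kb in mutant 1 and 17.1 kb in mutant 2, so the genotypes overlap. The left edge of the widest call lay farther left in both mutants under both callers. By MACS2 it was 15.28 and 15.57 kb from the left end of the interval in the controls versus 11.76 and 14.63 kb in the mutants, and by hiddenDomains 15.4 and 16.4 kb versus 15.2 and 14.6 kb. A neighbouring MACS2 region, chr13:73387387-73389607, was called in all 4 libraries with 0.66 and 1.18 kb in the controls versus 2.20 and 0.79 kb in the mutants.

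**Figure D2:**
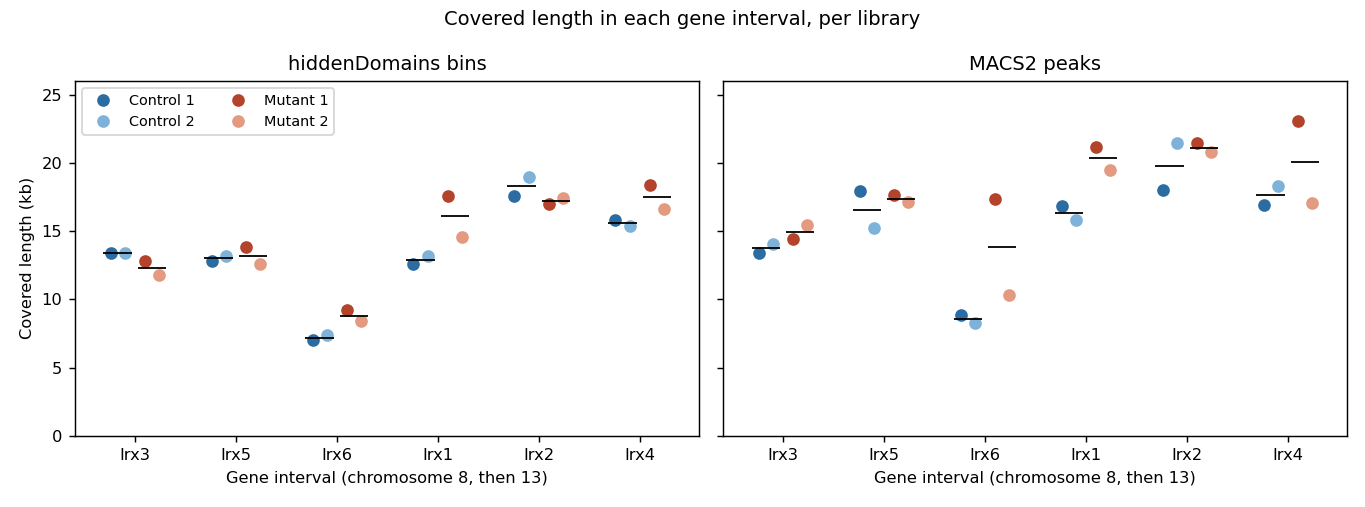
Kilobases called at each gene, by library and caller. Each point is 1 library and the bars are group means, with hiddenDomains and MACS2 in separate panels. Both mutants lie above both controls at Irx1 and Irx6 in both panels, and Irx6 has the lowest group means in both.

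Summed over the 6 genes, hiddenDomains covered 79.2 and 81.6 kb in the controls versus 88.8 and 81.4 kb in the mutants. The genotypes overlap, and the mean difference of 4.7 kb had an exact permutation p of 0.667. It was 1.0 kb without mutant 1, 8.4 kb without mutant 2, 2.9 kb with top-score bins only and 14.8 kb when lengths were scaled to equal totals. MACS2 covered 91.9 and 93.2 kb in the controls versus 115 and 100.3 kb in the mutants, a difference of 15.1 kb (exact permutation p = 0.333) that is 7.75 kb without mutant 1 and 9.27 kb when scaled. By hiddenDomains, 3 genes had both mutants above both controls (Irx1, Irx4 and Irx6), against 8.39% of the 12189 windows of 40 kb with at least 1 kb called on average. Another 2 had both mutants below (Irx2 and Irx3), against 43.7% of windows, and Irx5 overlapped. By MACS2, 3 genes had both mutants above (Irx1, Irx3 and Irx6), against 22.0% of 15472 windows, 0 had both below, against 33.5%, and the other 3 overlapped. Irx1 and Irx6 thus had both mutants above under both callers and Irx5 overlapped under both, while the mean differences at Irx2 and Irx3 turned positive with MACS2 and when lengths were scaled to equal totals. The background shifts for densely covered windows, a subset chosen after the data were seen: among windows averaging 7 kb or more, 13.9% by hiddenDomains and 34.6% by MACS2 had both mutants above, and 38.2% and 22.1% had both below. The median of these dense windows differed by -0.4 kb by hiddenDomains and 0.62 kb by MACS2.

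A limma fit across all windows, on log2(kb covered + 1), called 0 windows at a Benjamini-Hochberg adjusted p under 0.05 with either caller. At an unadjusted p under 0.05 it had 350 windows higher in the mutants (2.87%) and 2857 lower (23.4%) by hiddenDomains, and the median window differed by -0.13. DESeq2 and edgeR need counts and were not run. On this log2 scale the mutant minus control difference at Irx1 was 0.29 (SE 0.11, limma adjusted p = 0.228) and at Irx6 0.26 (SE 0.06, limma adjusted p = 0.147). Irx4 differed by 0.15 (SE 0.06, limma adjusted p = 0.249), Irx5 by 0.02 (adjusted p = 0.850), Irx2 by -0.08 (adjusted p = 0.376) and Irx3 by -0.12 (adjusted p = 0.262). Of the 6 genes, Irx6 alone was among those 350 windows, and 0 were among the 2857. Set against the median window, all 6 differences were above 0, from 0.02 at Irx3 to 0.43 at Irx1. That depends on the reference: the densely covered windows had a median mutant to control ratio of 0.965, and the ratio was below it at Irx2 (0.940) and Irx3 (0.918) and above it at the other 4 genes. With MACS2 peaks the differences ran from 0.07 at Irx5 to 0.59 at Irx6, all above 0 (Irx5 turned to -0.0098 when these lengths were scaled to equal totals), and 0 genes passed. The lowest limma adjusted p there was 0.183, at Irx1, whose unadjusted p of 0.0190 placed it among 1488 windows (9.62%). When hiddenDomains lengths were scaled to equal totals, the difference at Irx1 was 0.46 (SE 0.08, limma adjusted p = 0.0426), 1 of 170 windows called higher (1.41%). Over the 11 alternatives the limma adjusted p at Irx1 ran from 0.0426 to 0.561 and at Irx6 from 0.0753 to 0.420, so the call at Irx1 rests on that scaling.

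The gene intervals were covered more densely than the stretches between them in every library by both callers. HiddenDomains covered 33.7% and 34.7% of the gene intervals in the controls versus 37.8% and 34.6% in the mutants. Of the stretches between the genes it covered 1.67% and 1.65% in the controls versus 2.92% and 1.56% in the mutants, against 1.69% to 2.06% of the genome. MACS2 covered 2.90% and 3.75% of the stretches in the controls versus 7.81% and 4.15% in the mutants, above its share of the genome in each library (2.55% and 2.65%, 3.11% and 2.44%). By hiddenDomains the gene intervals were covered 20.1 and 21.0 times as densely as the stretches in the controls versus 12.9 and 22.1 times in the mutants. By MACS2 the ratio was 13.5 and 10.6 in the controls versus 6.27 and 10.3 in the mutants, with both mutants below both controls (exact permutation p = 0.333). The difference between genes and stretches averaged 33.3 percentage points and was above 0 in 4 of 4 libraries. Its two-sided exact sign-flip permutation test gave p = 0.125, the smallest that 4 libraries allow. MACS2 gave 37.9 points in the same direction (exact permutation p = 0.125). Among 65910 tiles of 40 kb over the genome, whose median is 0 kb, the gene intervals stood at the 97.6th percentile or above by hiddenDomains in every library, and the lowest was Irx6 in control 1. The change of the gene-minus-stretch difference with genotype was 1.42 points by hiddenDomains and 3.78 by MACS2, both with an exact permutation p of 0.333, so by MACS2 the difference in points was larger in the mutants and the ratio smaller. By hiddenDomains it was 0.52 points without mutant 1, 2.32 without mutant 2, 0.90 without control 1, 0.85 with the intervals widened by 10 kb and 5.51 when scaled. By MACS2 it was 2.47 points without mutant 1 and 1.71 when scaled.

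**Figure D3:**
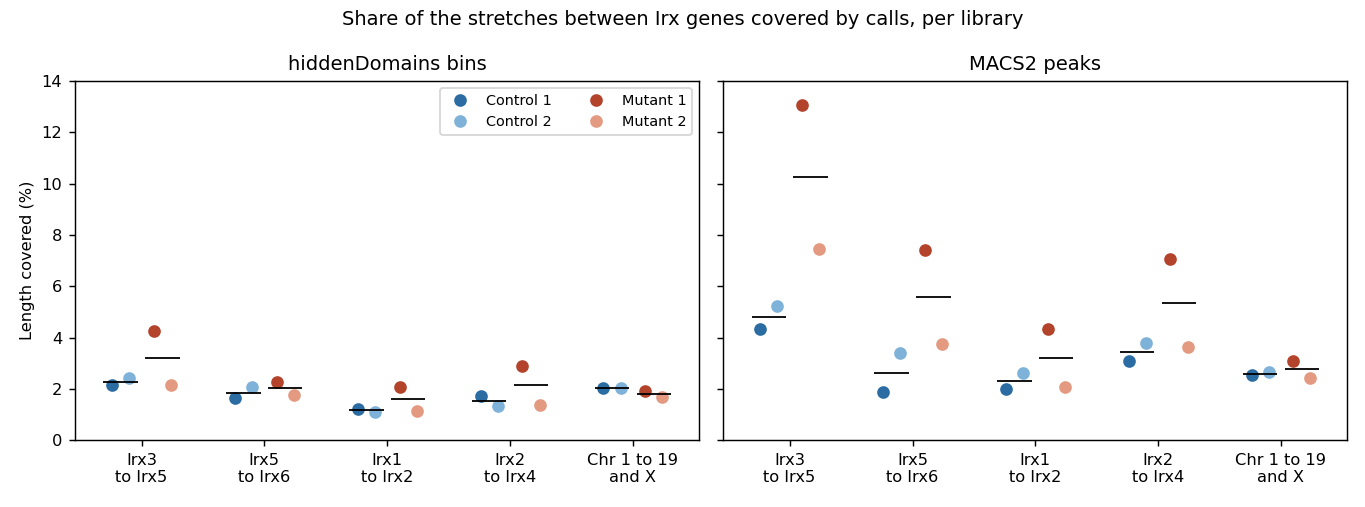
Percent of length called in each stretch between the genes and over chromosomes 1 to 19 and X, by library and caller. Each point is 1 library and the bars are group means. Mutant 1 is the highest of the 4 libraries in each stretch in both panels.

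Bin by bin, the calls at the genes were also more reproducible than those in the stretches. Counted as regions, hiddenDomains had 7 of 23 (30.4%) called in all 4 libraries at the genes and 18 of 60 (30%) in the stretches. MACS2 had 44.4% and 20%. The measures below were not compared with those of regions of like width. Of 469 bins called in any library at the genes, 371 (79.1%) were called in all 4, against 98 of 362 (27.1%) in the stretches and 54.0% of bins over the genome. By gene the share in all 4 ran from 64.6% at Irx6 and 70.8% at Irx1 to 84.5% at Irx2 and 89.9% at Irx5. Bins called in both controls and neither mutant made up 2.13% at the genes, against 8.50% over the genome, and these 10 bins were 5 at Irx3 and 5 at Irx2. Bins called in both mutants and neither control made up 2.35%, against 2.24% over the genome, with 8 of the 11 at Irx1, 2 at Irx6 and 1 at Irx4. The Jaccard index, the length shared by a pair of libraries over the length covered by either, was 0.923 between the controls at the genes and 0.883 between the mutants, and 0.838 to 0.903 between genotypes. In the stretches it was 0.600, 0.420 and 0.398 to 0.555. Between 96.2% and 99.5% of bins at the genes carried the highest display score, against 77.3% to 91.0% in the stretches. Of the MACS2 length at the genes, 76.8% to 86.6% also lay in hiddenDomains bins, against 33.6% to 52.3% in the stretches.

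The stretches are not empty: short islands of H3K27me3 recur in all libraries. Of 135 merged MACS2 regions, 27 (20%) had a peak in every library, against 36.4% over the genome, and 68 (50.4%) in a single library, against 38.1% over the genome, 46 of them in mutant 1. HiddenDomains also had bins in all 4 libraries in 18 of the 27, namely 5 of 12 from Irx3 to Irx5, 3 of 3 from Irx5 to Irx6, 4 of 4 from Irx1 to Irx2 and 6 of 8 from Irx2 to Irx4. The 3 widest regions of each stretch are described in turn.

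From Irx3 to Irx5, the widest was chr8:94587491-94596414 (8.92 kb), with 1.55 and 1.59 kb in the controls, 8.52 kb in mutant 1 and 4.30 kb in mutant 2. HiddenDomains covered 0 and 0.40 kb of it in the controls versus 3.80 and 0 kb in the mutants, so the excess in mutant 2 appears in 1 caller. The next, chr8:94550971-94556407 (5.44 kb), had 3.27 and 4.40 kb in the controls versus 5.33 and 5.36 kb in the mutants. The third, chr8:94358753-94363051 (4.30 kb), had 1.998 and 1.946 kb in the controls versus 3.11 and 1.74 kb in the mutants. From Irx5 to Irx6, chr8:94981806-94986505 (4.70 kb) was called in all 4 libraries, with 2.83 and 4.46 kb in the controls versus 3.96 and 3.45 kb in the mutants. The other two were called in mutant 1 alone (chr8:94971697-94974306, 2.61 kb) or in control 2 and mutant 2 (chr8:94909097-94911282, 2.19 kb).

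Between Irx1 and Irx2 all 3 were shared by the 4 libraries. The widest, chr13:72499130-72506847 (7.72 kb), had 3.68 and 4.51 kb in the controls versus 5.30 and 3.60 kb in the mutants. At chr13:72435118-72442202 (7.09 kb) the controls had 3.45 and 4.17 kb, mutant 1 had 7.09 kb and mutant 2 had 3.84 kb. The genotypes overlap at both. At chr13:72426382-72430765 (4.38 kb) the values were 3.43 and 4.16 kb in the controls versus 3.897 and 2.942 kb in the mutants. Between Irx2 and Irx4 the widest was chr13:72952154-72956141 (3.99 kb), with 2.12 and 3.19 kb in the controls versus 3.99 and 1.90 kb in the mutants. Control 1 lacked chr13:73287799-73291526 (3.73 kb), which had 2.13 kb in control 2 and 2.58 and 1.12 kb in the mutants. The third, chr13:72920543-72924194 (3.65 kb), had 1.72 and 0.94 kb in the controls versus 3.60 and 0.68 kb in the mutants. Of the 27 shared regions, 7 were longer in both mutants than in both controls and 0 shorter, against 14.7% and 38.1% of the 19923 MACS2 regions shared by the 4 libraries over the genome. HiddenDomains had 18 shared regions in the stretches, of which 3 were longer in both mutants and 1 shorter, against 6.40% and 39.3% over the genome.

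Regions of the stretches that were called in both mutants and neither control numbered 15 by MACS2 (11.1%), against 5.97% of all regions, and 1 showed the reverse (0.74%), against 4.90%. HiddenDomains had 2 of 60 regions in both mutants alone (3.33%), against 2.81% over its genome, and 0 in both controls alone, against 7.52%. Those 2, chr8:94360401-94362000 and chr13:72499401-72501600, lie inside wider MACS2 islands that the controls share. The Irx3 to Irx5 stretch held 8 of the 15: chr8:94345862-94347894, chr8:94364853-94367311, chr8:94433663-94434383, chr8:94471780-94473263, chr8:94479178-94480401, chr8:94497354-94497935, chr8:94695676-94697228 and chr8:94738571-94739530. The Irx5 to Irx6 stretch held chr8:94931950-94933035 and chr8:94992793-94993926. The Irx1 to Irx2 stretch held chr13:72507315-72509658 and chr13:72537822-72538612. The Irx2 to Irx4 stretch held chr13:72925764-72926136, chr13:73171512-73173563 and chr13:73313174-73314361, and also the control-only region chr13:73378577-73379364. These regions are short, from 0.37 to 2.46 kb, and none had hiddenDomains bins in both mutants.

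**Figure D4:**
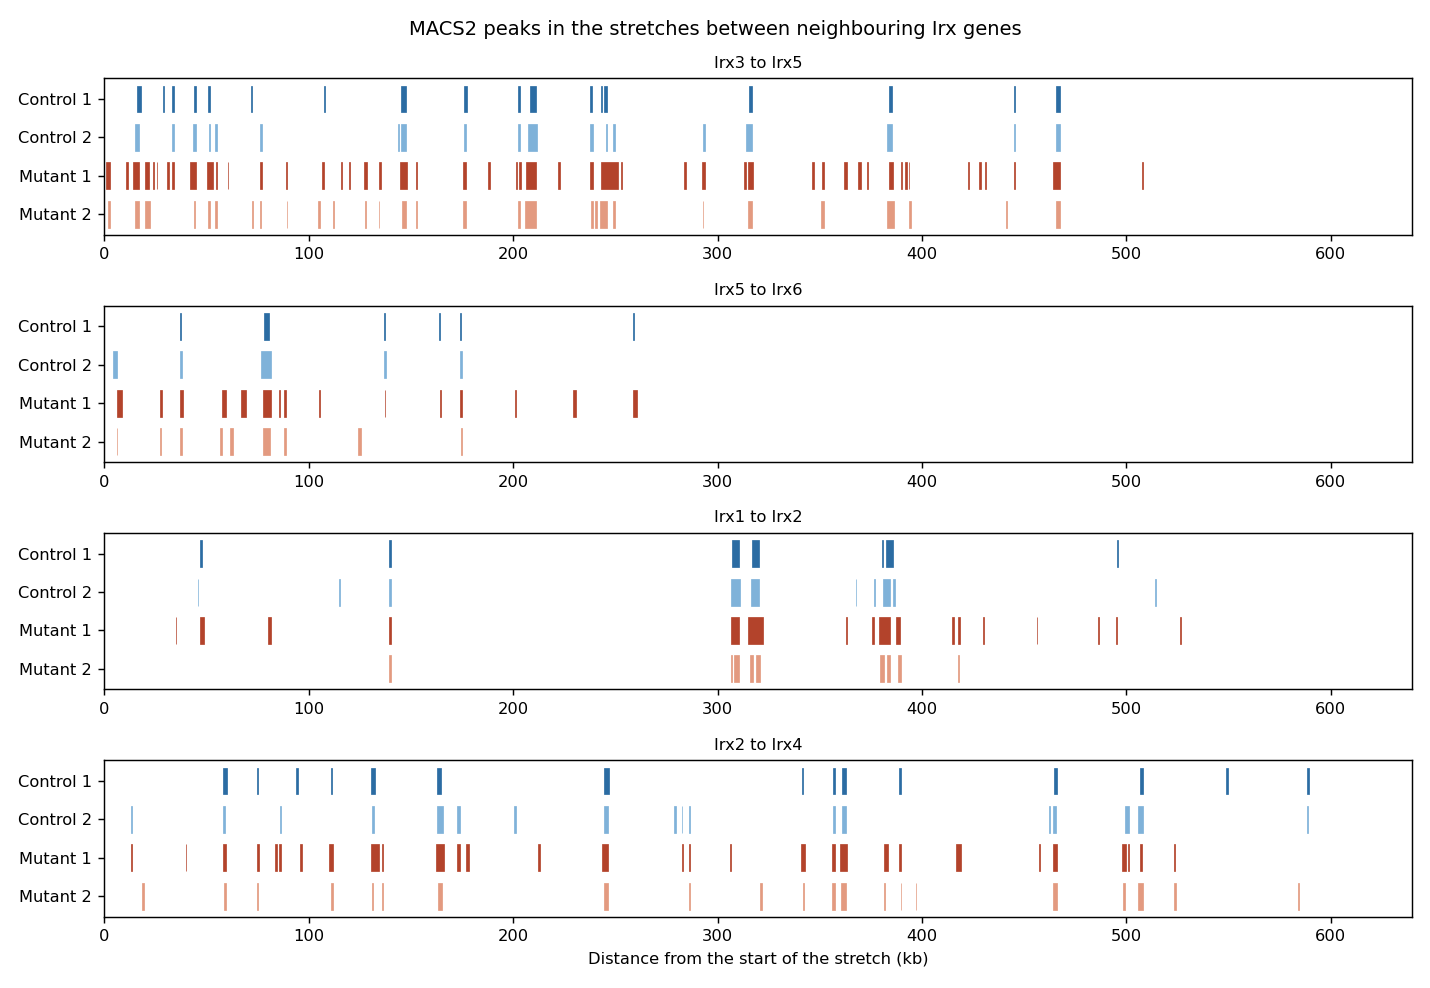
MACS2 peaks along the 4 stretches, by library, plotted against the distance from the left end of each stretch in kb. Mutant 1 holds 111 peaks in the stretches, against 46 and 52 in the controls and 68 in mutant 2, and the Irx3 to Irx5 stretch holds 49 of them.

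In total MACS2 covered 58.6 and 75.8 kb of the stretches in the controls versus 158 and 83.8 kb in the mutants (mean difference 53.6 kb, exact permutation p = 0.333). Without mutant 1 the difference was 16.6 kb and without mutant 2 it was 90.5 kb. Relative to the control mean, the stretches of mutant 1 had 2.35 times the length, while its genome had 1.20 times. For mutant 2 the same ratios were 1.25 and 0.94. In kb the Irx3 to Irx5 stretch stood highest in every library, with 22.5 and 27.3 kb in the controls, 67.9 kb in mutant 1 and 38.8 kb in mutant 2. Relative to the control mean, mutant 1 had 2.73 times the length there and 2.82 times from Irx5 to Irx6. For mutant 2 these ratios were 1.56 and 1.43. HiddenDomains covered 33.8 and 33.4 kb of the stretches in the controls, 59.0 kb in mutant 1 and 31.6 kb in mutant 2, so there mutant 1 alone was higher. Its mean difference of 11.7 kb (exact permutation p = 1) became -2 kb without mutant 1. Of the tiles of the stretches that entered the fit, 12 of 15 had a mutant minus control difference above 0 by hiddenDomains, against 25.0% of all tiles, and 22 of 24 by MACS2, against 44.3%. The limma fit called 0 of them at an adjusted p under 0.05 with either caller. The part of the larger peak number of mutant 1 in these differences was not tested.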

How the data were processed

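H3K27me3 was profiled in 4 libraries, 2 per genotype; the 2 input samples were not analysed here. The authors called each library separately and deposited MACS2 peaks, per the file headers, as start and end only. They also deposited hiddenDomains bins, per the file names, with a display score of 4 values whose meaning no source used here gives. The submitters' processing notes name Bowtie, bedtools and SAMtools, and the build mm9. Versions, thresholds, control tracks and depth were not given in the sources used here.

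Touching calls were joined and covered lengths computed with Python 3.11.15. Coordinates count from 1. Regions were merged over the 4 libraries where calls share at least 1 bp or touch. The genotypes were compared over libraries with exact permutation, two-sided. Windows of 40 kb with a mean of at least 1 kb, on log2(kb + 1), were fitted with limma 3.58.1 (R 4.3.3), which was tested on simulated data. The simulation had the same noise level in every window and no shifts of whole libraries, so it does not cover such shifts. All merged regions at the 6 genes are counted and the widest is described; in each stretch the 3 widest and every region of 1 genotype are named. Alternatives were the other caller, top-score bins, widened intervals, scaling to equal totals, other window, pseudocount, minimum and overlap, a replicate block and leaving out each library. The members, lists and tests were chosen with earlier results of these data known. No mm9 annotation was used here, so gene starts were not placed in the domains.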

Additional observations from a re-analysis of the deposited data

How the results depend on the processing

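Depth and control tracks are unknown, so lengths carry no counting error. The cause of each change below was not tested. The mutant minus control difference in summed stretch length by hiddenDomains ran from -2 kb (without mutant 1) to 25.4 kb when 1 library was left out. The same difference at Irx5 ran from -0.4 to 0.8 kb. The difference at Irx2 turned to 1.37 kb with MACS2, 1.12 kb scaled and 0.33 kb with MACS2 scaled, and at Irx3 to 1.21, 0.46 and 0.55 kb. At Irx5 it was -0.11 kb with MACS2 scaled, an alternative added after seeing the data. On the limma log2 scale the same 3 settings gave 0.10, 0.083 and 0.018 at Irx2 and 0.11, 0.047 and 0.036 at Irx3. Irx5 was -0.0098 with MACS2 scaled, and ran from -0.042 to 0.080 when 1 library was left out, with -0.0013 without control 1; an arm of 1 library takes its spread from the other. Irx1 was 0.46 scaled. Windows called higher and lower, 0 and 0, were 73 and 884 with no minimum (over windows with any call), 170 and 277 scaled, and 211 and 78 with MACS2 scaled. Stretch regions in all 4 libraries fell from 27 to 12 when each library had to cover 50%. The differences at Irx1, Irx4 and Irx6, over the 6 genes, and between genes and stretches kept their sign under every alternative run. For single genes these did not include MACS2 with 1 library left out. At Irx4 MACS2 gave 17.1 kb in mutant 2, below the control mean of 17.6 kb, so the sign there rests on mutant 1. At Irx1 and Irx6 mutant 2 alone was above both controls with MACS2. Replicate numbers are only shared: over 12189 windows the replicate differences of the genotypes correlated at r = 0.05, and the fit with a replicate block called 0 windows, with 329 higher and 2310 lower at an unadjusted p under 0.05.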
